A study of Marchantia polymorpha and Klebsormidium nitens with 125 samples.

Results

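The transcriptome of nitrate-starved wild-type *Marchantia polymorpha* was compared with that of control plants. M. polymorpha is a liverwort, and the material was whole gemmalings of the strain Tak-1, that is, small plants raised from asexual propagules (gemmae). The comparison took all Tak-1 libraries of the time course labelled as starved of nitrate and all those labelled as control, 3 against 3, which is 6 of the 125 libraries of the series. Of 19355 genes in the count table, 13504 passed the expression filter and were tested. The nitrate-starved plants grew for 7 days in full liquid Yamagami medium and then for 5 days in medium with 1% of its sodium and potassium nitrate. The control plants are labelled as untreated and kept in full Yamagami medium. The labels do not give the day on which controls were harvested, so whether both groups had the same age is unknown and the part of age in the differences was not tested. They also do not say whether replicates were separate cultures, so the spread behind the p-values may be technical. Plants resupplied with full medium for 6, 24 or 72 h, Tak-1 starved of phosphate (1%) or sucrose (0%), a second set of Tak-1 controls, and the mutants Mpcsd-2, Mperf20-21 and Mphd9-14 (3 libraries per group) were used for comparison.

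Nitrate is a main nitrogen source of land plants. It is taken up by membrane transporters, reduced to nitrite and ammonium, and built into glutamine and glutamate, from which amino acids, nucleotides and chlorophyll are made. Members of the nitrate and peptide transporter family (NPF) move nitrate and other small solutes, and ammonium transporters (AMT) bring in ammonium. In flowering plants, transcription factors of the NIN-like class with an RWP-RK domain control nitrate responses, and nitrogen shortage lowers growth and chlorophyll and raises phenolic metabolism. The names table used here gave no symbol to genes of nitrate reduction or of glutamine and glutamate synthesis, so these steps are not described.

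The 6 libraries held 23939816 to 38992957 counts per library. Levels are CPM, which are read counts scaled to a common library size by the TMM method, changes are log2 fold changes (starved minus control) ± standard error, and a gene is called at an adjusted p under 0.05 by edgeR's quasi-likelihood test with Benjamini-Hochberg adjustment over all 13504 genes. Starved replicate 1 deviated most from its group, with a root mean square log2 deviation of 0.388 from the mean of the other libraries of its group, against 0.296 to 0.35 in the other 5 libraries. The sums of cell type markers are CPM of the total counts of each library, without TMM scaling. Markers of oil body cells (MpC1HDZ and MpERF13) summed to 67.1 to 80.5 CPM in control and 68.4 to 76.1 CPM in starved libraries. Those of gemma cups (MpKAR and MpGCAM1) summed to 24.1 to 28.1 and 20.4 to 23.9 CPM, and 0 of these 4 genes were called. Of 4 markers of reproductive organs MpLC7 had 0 counts in all 6 libraries, MpPRM had 3 counts in control and 0 in starved libraries, MpDUO1 had 36 and 48, and MpRKD had 10092 and 12003. These are raw counts summed over each group and not scaled for depth. The log2 fold change was 0.13 (adjusted p = 0.822) for MpDUO1 and -0.015 (adjusted p = 0.889) for MpRKD, and neither was called. The 4 genes summed to 120 to 128 CPM in control and 122 to 128 CPM in starved libraries. In whole gemmalings, fewer cells of a type and less RNA per cell cannot be told apart.

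Of the 13504 genes, 4261 (31.6%) were called, 2224 (16.5%) higher and 2037 (15.1%) lower in starved plants. Most changes were small: the median size was 0.43 among raised and 0.39 among lowered genes, while the median over all tested genes was 0.01. Changes of at least 2-fold were found in 548 genes (4.06%), of which 367 (2.72%) were raised and 181 (1.34%) lowered, and changes of at least 4-fold in 81 raised and 36 lowered genes. Genes that were raised took 17.3% of the counts in control and 22.7% in starved libraries. Genes that were lowered took 29.3% and 21.6%. The starved and control libraries did not overlap in 6442 genes (47.7%).

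**Figure D1:**
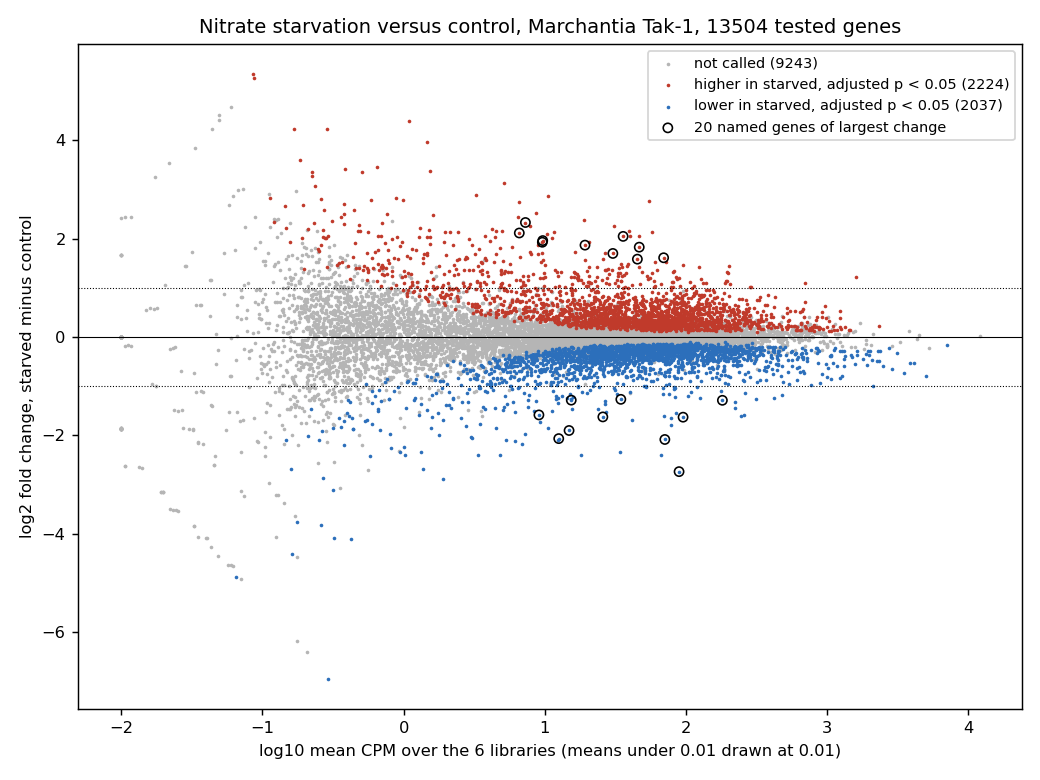
Log2 fold change of each tested gene (starved minus control, vertical axis) against the log10 of its mean CPM over the 6 libraries (horizontal axis). Red points are the 2224 genes that were higher in starved plants, blue points the 2037 that were lower, grey points were not called, dotted lines mark a 2-fold change, and circles mark the 20 named genes of largest change.

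Nitrogen transport and signalling genes changed in both directions. MpNLA (Mp4g03460) is named after an Arabidopsis ubiquitin ligase, nitrogen limitation adaptation, that controls the stability of nitrate and phosphate transporters. It stood at 3.49, 3.89 and 4.65 CPM in the control libraries and 15.9, 15.6 and 14 CPM in the starved libraries, a rise of 1.92 ± 0.27 (adjusted p = 2.53e-06). The 3 starved values lie close together and all lie well above the highest control value. MpNIN (Mp8g12800), a member of the RWP-RK class, rose by 0.40 ± 0.09 (adjusted p = 0.000592), from 418, 392 and 447 CPM to 503, 539 and 615 CPM. Its starved libraries were all above the control libraries, although the change is small. MpTOR (Mp6g14650), the kinase that couples growth to nutrients, fell by 0.23 ± 0.07 (adjusted p = 0.0151), from 157, 136 and 145 CPM to 123, 122 and 129 CPM, with adjusted p of 0.101 without control replicate 1 and 0.0574 without starved replicate 2. Of the 8 tested genes of this signalling list, 2 rose (25%) and 1 fell (12.5%), against 16.5% and 15.1% of all genes. The other 5 were not called, among them the calcium sensor MpCBL-A and the kinase MpCIPK-A.

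Of 17 AMT genes with a symbol, 4 were tested, and the other 13 had at most 2 counts summed over the 3 libraries of either group. MpAMT1.2 (Mp6g08310) stood at 513, 533 and 549.9 CPM in control and 1074, 768 and 764 CPM in starved libraries, a rise of 0.71 ± 0.15 (adjusted p = 0.000627). The groups did not overlap, and starved replicate 1 was the highest. MpAMT1.4 (Mp8g05280) stood at 9.62, 10.8 and 9.41 CPM and 19.6, 17.3 and 18.2 CPM and rose by 0.89 ± 0.17 (adjusted p = 0.000144). Each starved value exceeded every control value, and the spread within each group was narrow. MpAMT2.3 (Mp4g12460), of the other AMT clade, went the opposite way, from 4.99, 4.77 and 5.1 CPM to 1.55, 0.93 and 1.09 CPM, and fell by 2.04 ± 0.29 (adjusted p = 2.63e-06). MpAMT2.2 was at -0.43 ± 0.40 (adjusted p = 0.434) and was not called, with overlapping groups at 2.06, 2.26 and 3.31 CPM in control and 2.25, 2.02 and 1.33 CPM in starved libraries. MpCLC1, the tested member of the anion channel family CLC, stood at 246, 251 and 249 CPM and 255, 234 and 257 CPM, and its log2 fold change was 0.00 ± 0.06 (adjusted p = 0.996).

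Of 35 NPF genes 21 were tested. Of these, 3 rose (14.3%, against 16.5% of all genes) and 6 fell (28.6%, against 15.1%). The median change over the 21 was -0.30 against 0.01 over all genes. MpNPF31 (Mp7g01820) fell most, from 10.9, 12.5 and 8.91 CPM to 3.98, 5.0 and 5.37 CPM, by 1.18 ± 0.15 (adjusted p = 4.06e-07). Its groups did not overlap. MpNPF33 (Mp8g06300) fell by 1.00 ± 0.32 (adjusted p = 0.0176), from 7.15, 7.49 and 8.19 CPM to 3.8, 3.14 and 4.49 CPM, MpNPF6 fell by 0.63 ± 0.11 (adjusted p = 3.29e-05) and MpNPF28 by 0.41 ± 0.09 (adjusted p = 0.000595). The 3 genes that rose were MpNPF34 with 0.99 ± 0.30 (adjusted p = 0.0117), MpNPF26 with 0.79 ± 0.27 (adjusted p = 0.0247) and MpNPF14 with 0.57 ± 0.22 (adjusted p = 0.045). The count for the family was 4 without starved replicate 2 (1 higher, 3 lower) and 4 without control replicate 3 (0 higher, 4 lower), and the call of MpNPF14 was lost with the replicate block (adjusted p = 0.0538). The call was also lost for MpNPF14 without any single library, for MpNPF26 without control replicate 2 or 3 or starved replicate 2, for MpNPF33 without control replicate 3 or starved replicate 2, and for MpNPF34 without control replicate 3 or starved replicate 3 (adjusted p = 0.0517 to 0.152). The amino acid permease MpAAP1 rose by 0.37 ± 0.12 (adjusted p = 0.0171), with adjusted p of 0.0519, 0.0567 and 0.0786 without control replicate 1, control replicate 2 and starved replicate 3.

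The genes of largest rise included polyphenol oxidases, copper enzymes that oxidise phenolic compounds. MpPPO4 (Mp2g05810) stood at 16.1, 12.7 and 13 CPM in control and 43.6, 67.6 and 62 CPM in starved libraries and rose by 2.04 ± 0.27 (adjusted p = 9.57e-07). MpPPO2 (Mp2g05780) stood at 4.61, 3.89 and 3.35 CPM and 19.7, 15 and 11.5 CPM and rose by 1.96 ± 0.37 (adjusted p = 0.000143). In both genes the lowest starved library was more than 2-fold above the highest control library. MpPPO3 (Mp2g05790) rose by 1.29 ± 0.34 (adjusted p = 0.00357), from 3.3, 3.48 and 2.09 CPM to 9.02, 6.64 and 6.07 CPM. These 3 genes are neighbours on chromosome 2, and the unnamed genes Mp2g05770 (1.82 ± 0.45, adjusted p = 0.00216) and Mp2g05800 (1.51 ± 0.38, adjusted p = 0.00279) beside them also rose, so that 5 consecutive genes changed by at least 2-fold in the same direction. Near-identical copies could share reads, and how the authors' counting divided them is not given, so the values of single neighbours are uncertain. Of 30 tested polyphenol oxidases 5 rose (16.7%) and 1, MpPPO8, fell (3.33%), against 16.5% and 15.1% of all genes. The count for the family was 3, all higher, without control replicate 1, control replicate 2 or starved replicate 3, while a fit of the 6 libraries alone called 13, with 7 higher and 6 lower.

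MpGT47.9 (Mp3g13740), a glycosyltransferase of a family that makes cell wall polysaccharides, stood at 3.68, 1.34 and 2.29 CPM and 7.02, 11.4 and 13.8 CPM and rose by 2.11 ± 0.40 (adjusted p = 0.000149). MpCML42 (Mp6g18000), a calmodulin-like calcium-binding protein, stood at 8.13, 8.33 and 8.38 CPM and 24, 33.3 and 33.3 CPM and rose by 1.87 ± 0.27 (adjusted p = 3.16e-06). The control libraries of MpCML42 were nearly equal, and both genes had groups that did not overlap, as their choice required. MpLTP-like65 (Mp3g06560), a lipid transfer-like protein, rose by 1.82 ± 0.31 (adjusted p = 3.20e-05), from 15.4, 24.5 and 21.9 CPM to 89.5, 54.6 and 73.8 CPM. MpABCG14 (Mp2g17910), a membrane transporter of the ABC class, rose by 1.58 ± 0.35 (adjusted p = 0.000803), from 29.7, 14.4 and 23.7 CPM to 77, 63.9 and 62.8 CPM. MpCCC2 (Mp5g00360) rose by 1.61 ± 0.40 (adjusted p = 0.00255), from 44.2, 26.4 and 31.9 CPM to 93.7, 114 and 107 CPM. In these 3 genes every starved library was above every control library, which was also a condition of their choice. The 2-oxoglutarate dioxygenase MpDOXC22 (Mp3g25160), named as a member of its family, stood at 30.4, 29.9 and 33.7 CPM and 99.2, 84.1 and 86.7 CPM, a rise of 1.52 ± 0.09 (adjusted p = 4.08e-13) with little spread in either group.

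Some of the largest rises rested on starved replicate 1. MpWRKY14 (Mp6g16800), a member of a family of stress-related transcription factors, stood at 2.83, 1.97 and 2.48 CPM in control and 25.2, 5.03 and 6.21 CPM in starved libraries, and rose by 2.33 ± 0.46 (adjusted p = 0.000251). Without that library its change was 1.20 (adjusted p = 0.0224). MpGH16.8 (Mp2g17820), of a family of wall-modifying glycoside hydrolases, stood at 12.6, 14.8 and 15.8 CPM and 93.5, 24.6 and 20.7 CPM, and its change of 1.70 ± 0.44 (adjusted p = 0.00322) became 0.66 (adjusted p = 0.22) without it. Both genes were several-fold higher in that library than in the other starved libraries. The phosphodiesterase MpGDPD, at 297, 149 and 132 CPM in starved libraries, rose by 0.95 ± 0.26 (adjusted p = 0.00556) and was at 0.49 (adjusted p = 0.147) without it. MpERF21, at 0.0318, 0.167 and 0.114 CPM in control and 5.63, 0.513 and 0.105 CPM in starved libraries, was called at 4.38 ± 1.13 (adjusted p = 0.00312) although its groups overlap, and was at 1.63 (adjusted p = 0.352) without it. The lowered genes MpCupin83 and MpCupin84, of a family of barrel-shaped proteins, were instead highest in that library. MpCupin83 (Mp5g13860) stood at 140.3, 194 and 132 CPM in control and 45.9, 15.3 and 7.82 CPM in starved libraries and fell by 2.74 ± 0.55 (adjusted p = 0.000273), with a value of -3.74 (adjusted p = 4.07e-05) without starved replicate 1. MpCupin84 (Mp5g13870) stood at 34.2, 50.5 and 32.8 CPM and 30.7, 4.1 and 2.28 CPM and fell by 1.62 ± 0.59 (adjusted p = 0.0337). Without starved replicate 1 its value was -3.60 (adjusted p = 7.01e-05), and without control replicate 2 or starved replicates 2 or 3 the adjusted p was 0.117 to 0.166.

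**Figure D2:**
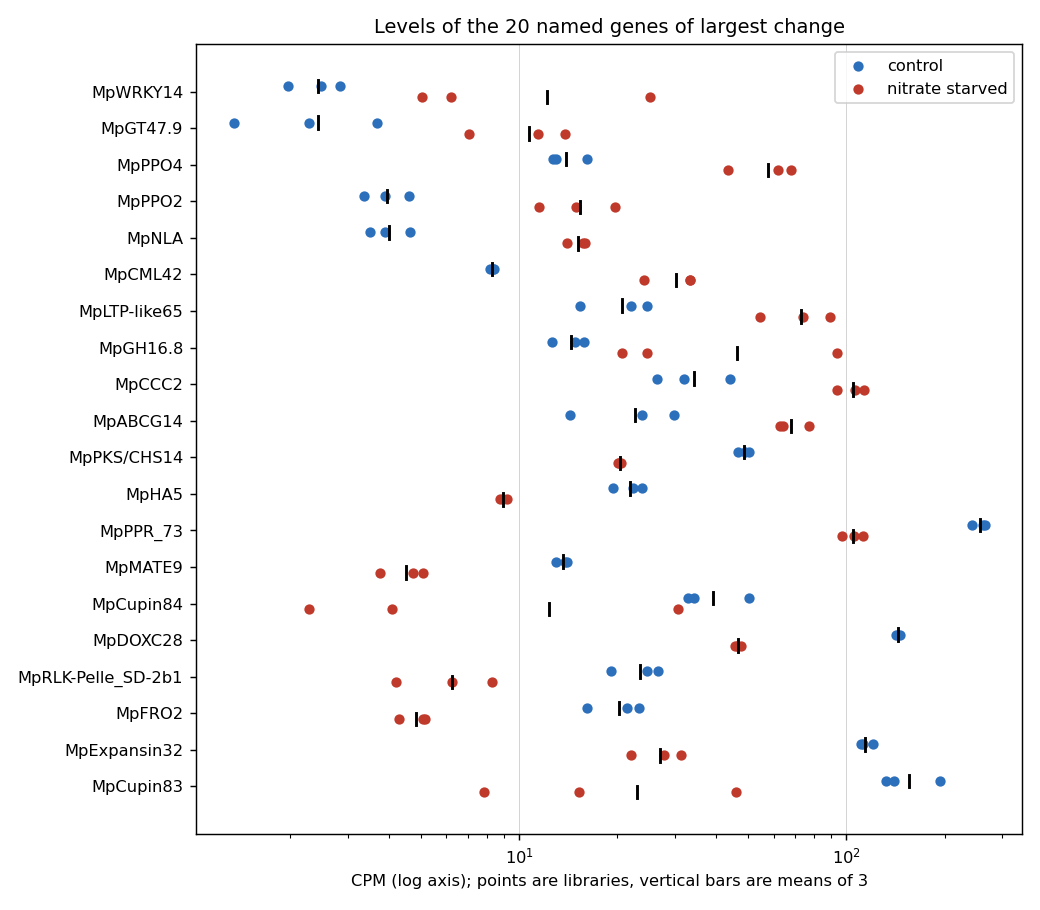
CPM (horizontal log axis) of the 10 genes that rose most and the 10 that fell most among genes with a symbol and at least 10 CPM in the higher group, in the control (blue) and nitrate-starved (red) libraries. Points are libraries and black bars are means of 3. Groups that do not overlap were a condition for choosing the 20 genes. Starved replicate 1 stands far above the other starved libraries in MpWRKY14, MpGH16.8, MpCupin83 and MpCupin84.

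Of 13 tested WRKY genes 10 rose (76.9%, against 16.5% of all genes) and 0 fell, with a median change of 0.53, and the 3 that were not called had values of 0.09 to 0.43. MpWRKY10 (Mp7g06550) stood at 31.9, 32.8 and 34.6 CPM in control and 92.9, 58.1 and 71.8 CPM in starved libraries, a rise of 1.17 ± 0.12 (adjusted p = 1.36e-08). MpWRKY11 (Mp1g24950) had the largest gain in CPM of the called genes with a symbol, from 1051, 944 and 1029 CPM to 1455, 1399 and 1507 CPM, a rise of 0.53 ± 0.09 (adjusted p = 1.75e-05). In both, all starved libraries lie above all control libraries. MpWRKY9 rose by 0.84 ± 0.12 (adjusted p = 1.77e-06), MpWRKY8 by 0.84 ± 0.14 (adjusted p = 2.57e-05) and MpWRKY1, the smallest rise of the family, by 0.21 ± 0.05 (adjusted p = 0.00202).

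The ERF family, named for responses to ethylene, had 15 tested genes, of which 8 rose (53.3%) and 0 fell, with a median of 0.58. MpERF18 (Mp5g12480) stood at 17.1, 17.8 and 19.9 CPM and 52, 46 and 54.4 CPM, a rise of 1.47 ± 0.16 (adjusted p = 3.97e-08). MpERF8 rose by 1.28 ± 0.14 (adjusted p = 2.80e-08), MpERF15 by 1.24 ± 0.24 (adjusted p = 0.000201) and MpERF11 by 0.81 ± 0.15 (adjusted p = 0.000116). The starved libraries of these 4 genes did not overlap with the controls. MpERF9 was at 2.18 and was not called (adjusted p = 0.0783), and the oil body factor MpERF13 was at -0.02 (adjusted p = 0.917). Both counts were within 1.5 times the main count in each alternative run. Against 16.5% of all genes higher and 15.1% lower, the MYB family had 11 of 41 higher (26.8%) and 8 lower (19.5%). The bHLH family had 8 of 37 higher (21.6%) and 5 lower (13.5%), and the trihelix family 8 of 35 higher (22.9%) and 6 lower (17.1%). The bZIP family had 4 of 13 higher (30.8%) and 1 lower (7.69%), or 7 and 1 in a fit of the 6 libraries alone. MpBZIP15 (Mp1g03580), a basic leucine zipper factor, stood at 761, 749 and 750.0 CPM and 1218, 1135 and 1163 CPM and rose by 0.64 ± 0.15 (adjusted p = 0.00126). MpR2R3-MYB20 rose by 1.04 ± 0.11 (adjusted p = 3.16e-08), MpBHLH21 by 1.10 ± 0.16 (adjusted p = 4.51e-06), and the auxin response factors MpARF3 and MpARF2 by 0.51 ± 0.07 (adjusted p = 1.24e-06) and 0.32 ± 0.06 (adjusted p = 0.000103). Of 8 ASL/LBD genes, plant-specific factors of organ boundaries, 3 rose (37.5%) and 0 fell, led by MpASLBD24 with 0.64 ± 0.07 (adjusted p = 5.14e-08). MpASLBD7, at 0.17 ± 0.06 (adjusted p = 0.0327), had overlapping groups. Its call was lost in a fit of the 6 libraries alone (adjusted p = 0.109). It was also lost without control replicate 1, control replicate 2 or starved replicate 3 (adjusted p = 0.0783 to 0.318).

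Besides MpCupin83 and MpCupin84, 8 genes made up the 10 lowest log2 fold changes among called genes with a symbol, groups that do not overlap and at least 10 CPM in the higher group. MpExpansin32 (Mp4g06560), an expansin, a protein that loosens growing cell walls, stood at 111, 121 and 112 CPM in control and 31.2, 22.1 and 27.8 CPM in starved libraries, a fall of 2.08 ± 0.17 (adjusted p = 3.66e-10). MpDOXC28 (Mp5g00520), a 2-oxoglutarate dioxygenase, stood at 146, 142 and 144 CPM and 45.8, 47.6 and 46.3 CPM, a fall of 1.63 ± 0.15 (adjusted p = 2.82e-09). Both groups of MpDOXC28 were nearly constant, and in each gene the lowest control value was well above the highest starved value. MpFRO2 (Mp3g20260), a ferric reductase that readies iron for uptake, stood at 21.4, 23.2 and 16.1 CPM and 4.3, 5.16 and 5.09 CPM, a fall of 2.06 ± 0.18 (adjusted p = 9.97e-10). MpPPR_73 (Mp8g16250), an organelle RNA-binding protein of the pentatricopeptide repeat class, fell by 1.29 ± 0.12 (adjusted p = 1.46e-09), from 242, 263 and 266 CPM to 113, 97.1 and 106 CPM. The efflux carrier MpMATE9 (Mp4g18440) stood at 13, 13.9 and 14.1 CPM and 5.08, 4.74 and 3.75 CPM and fell by 1.58 ± 0.16 (adjusted p = 7.92e-09). The groups of these 3 genes were also apart. The receptor-like kinase MpRLK-Pelle_SD-2b1 (Mp1g25080) fell by 1.90 ± 0.27 (adjusted p = 2.25e-06), and the chalcone synthase-like polyketide synthase MpPKS/CHS14 (Mp4g14190) fell by 1.27 ± 0.15 (adjusted p = 1.42e-07). MpHA5 is given with the other proton pumps.

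Of 12 tested genes of metal handling 7 fell (58.3%, against 15.1% of all genes) and 0 rose, with a median of -0.46. Besides MpFRO2 these were the ferric reductase MpFRO1, which fell by 0.47 ± 0.09 (adjusted p = 0.000214), MpLPR7 (Mp8g04700), of a class of iron-oxidising multicopper oxidases, and the ZIP metal transporters MpZIP1, MpZIP2, MpZIP3 and MpZIP5. MpLPR7 stood at 62.9, 75.8 and 69.4 CPM in control and 31.9, 35.7 and 36 CPM in starved libraries and fell by 1.01 ± 0.18 (adjusted p = 9.19e-05). MpZIP5 fell by 1.18 ± 0.37 (adjusted p = 0.0136) and MpZIP3 by 0.34 ± 0.11 (adjusted p = 0.015). Single libraries decided the calls of MpZIP5 (adjusted p = 0.0755 without starved replicate 1 and 0.0545 without control replicate 3), MpZIP3 (0.0829 without starved replicate 1) and MpZIP2 (0.068 and 0.0658 without starved replicates 2 and 3). Of 15 plasma membrane proton pumps, which power nutrient uptake, 4 fell (26.7%) and 1, MpHA1, rose (6.67%). MpHA3 (Mp4g02970) stood at 1241, 1165 and 1148 CPM and 993, 848 and 864 CPM and fell by 0.39 ± 0.08 (adjusted p = 0.000266). MpHA5 (Mp3g12380) stood at 19.4, 23.8 and 22.2 CPM and 8.75, 9.17 and 8.94 CPM and fell by 1.28 ± 0.23 (adjusted p = 5.82e-05). The groups were apart in both, as in MpHA14, which fell by 0.55 ± 0.15 (adjusted p = 0.00631).

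Of 25 cell cycle and replication genes 9 fell (36%, against 15.1% of all genes) and 1 rose (4%, against 16.5%), with a median of -0.16. MpCDKB (Mp5g19170), the mitotic cyclin-dependent kinase of plants, stood at 35.4, 35.9 and 38.4 CPM and 22.6, 28.6 and 28 CPM and fell by 0.47 ± 0.09 (adjusted p = 8.93e-05). MpMCM6 (Mp4g14930), a subunit of the replicative helicase, stood at 12.8, 14.9 and 15.5 CPM and 8.49, 10.2 and 8.98 CPM and fell by 0.64 ± 0.13 (adjusted p = 0.000313). In both genes all starved libraries were below all controls. MpMCM3 fell by 0.56 ± 0.15 (adjusted p = 0.00466), the cyclins MpCYCA by 0.42 ± 0.11 (adjusted p = 0.00269) and MpCYCD_1 by 0.39 ± 0.10 (adjusted p = 0.00287), and the kinase MpWEE1 by 0.53 ± 0.15 (adjusted p = 0.00631), while MpMCM9 rose by 0.75 ± 0.12 (adjusted p = 1.18e-05). Without starved replicate 1 the adjusted p was 0.0556 for MpMCM3, 0.0571 for MpWEE1, 0.0652 for MpMCM2 and 0.104 for the cyclin MpCYCB_1, which are all among the genes that fell. MpWEE1 was also at 0.057 without control replicate 2. Of 25 histone genes 4 fell (16%) and 2 rose (8%), close to or below the shares over all genes, and the count was 2, both higher, without starved replicate 1 or control replicate 3, and 3 (1 higher, 2 lower) without starved replicate 3 or control replicate 2. Of 21 tested expansins 5 fell (23.8%) and 0 rose. MpExpansin34 (Mp4g22180) stood at 8.67, 9.63 and 9.1 CPM and 4.77, 2.82 and 1.86 CPM and fell by 1.52 ± 0.32 (adjusted p = 0.00043). MpExpansin14 fell by 0.73 ± 0.21 (adjusted p = 0.00894) and MpExpansin2 by 0.21 ± 0.06 (adjusted p = 0.00663), and without starved replicate 3 the family count was 3, with adjusted p of 0.0501 and 0.0502 for these genes. MpExpansin2 was also at 0.0515 without control replicate 3 and 0.0575 without starved replicate 2. Of 69 cell wall carbohydrate enzymes 12 rose (17.4%) and 4 fell (5.8%). Among those that rose were MpGT47.8 with 1.19 ± 0.13 (adjusted p = 7.31e-08) and the cellulose synthase-like MpCSLD8 with 0.67 ± 0.11 (adjusted p = 1.45e-05).

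Genes of chlorophyll synthesis fell. All 4 tested members of the list, which work at magnesium chelatase, the enzyme that commits the pathway to chlorophyll, were lower. Of all genes 15.1% were lower. MpGUN5 (Mp8g10280), named after the gene of the large chelatase subunit, stood at 617, 596 and 579.5 CPM in control and 352, 345 and 332 CPM in starved libraries and fell by 0.80 ± 0.06 (adjusted p = 2.72e-10). The groups did not overlap and were each narrow. The subunit gene MpCHLD fell by 0.43 ± 0.06 (adjusted p = 3.46e-06), MpCHLI1/2-like by 0.26 ± 0.06 (adjusted p = 0.00137) and the chelatase activator MpGUN4 by 0.27 ± 0.07 (adjusted p = 0.00277). These genes stand for a single step of the pathway. MpRBCS, the small subunit of Rubisco, fell by 0.32 ± 0.11 (adjusted p = 0.0186), with adjusted p of 0.0556, 0.0596 and 0.122 without control replicate 3, starved replicate 2 and starved replicate 3. Of 21 genes of autophagy, which recycles cell content, 3 fell (14.3%), 1 rose (4.76%) and 17 were not called. The share that fell is near that of all genes (15.1%), and the share that rose is below that of all genes (16.5%). No gene of chlorophyll breakdown was in this list, so that process is not described. The kinase gene MpATG1 fell by 0.44 ± 0.07 (adjusted p = 1.87e-05), MpATG18c by 0.46 ± 0.12 (adjusted p = 0.00234) and MpATG9 by 0.25 ± 0.07 (adjusted p = 0.00625), and MpATG11 rose by 0.28 ± 0.07 (adjusted p = 0.00251).

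The following counts stand against 16.5% of all genes higher and 15.1% lower. Of 42 phenylpropanoid and flavonoid genes 11 fell (26.2%) and 4 rose (9.52%), with falls in MpF3H, of the flavonoid pathway, by 0.67 ± 0.09 (adjusted p = 1.49e-06) and in the chalcone isomerase-like MpCHIL2 by 0.64 ± 0.09 (adjusted p = 3.35e-06). Of 82 cytochromes P450 20 fell (24.4%) and 12 rose (14.6%), and of 31 UDP-glycosyltransferases 9 fell (29%) and 3 rose (9.68%). Of 21 antioxidant enzymes 9 fell (42.9%) and 4 rose (19%). Among 70 class III peroxidases 10 rose (14.3%) and 3 fell (4.29%), and MpPOD3 fell by 1.22 ± 0.23 (adjusted p = 0.000131) while MpPOD152 rose by 0.59 ± 0.08 (adjusted p = 2.04e-06). Receptor-like kinases numbered 75, of which 19 rose (25.3%) and 14 fell (18.7%). Of 42 LEA proteins, which protect cells during drying, 6 rose (14.3%) and 1 fell (2.38%), with MpLEA-like58 at 1.24 ± 0.15 (adjusted p = 3.38e-07), and a fit of the 6 libraries alone called 12, 9 higher and 3 lower. Of 12 genes of abscisic acid 3 rose (25%) and 2 fell (16.7%), and MpABA1, an enzyme of its synthesis, fell by 0.70 ± 0.08 (adjusted p = 2.05e-07). Of 10 cytokinin genes 3 rose (30%) and 1 fell (10%), and the receptor gene MpCHK1 rose by 0.41 ± 0.08 (adjusted p = 0.000312). Without control replicate 1 or 2 the cytokinin count was 2, both higher. Of 16 genes of lipid storage and desaturation 4 fell (25%) and 0 rose. The fatty acid desaturase MpFAD11 (Mp5g20700) stood at 823, 819.8 and 766 CPM in control and 524, 460.3 and 483 CPM in starved libraries and fell by 0.72 ± 0.08 (adjusted p = 2.14e-08), and its groups did not overlap.

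**Figure D3:**
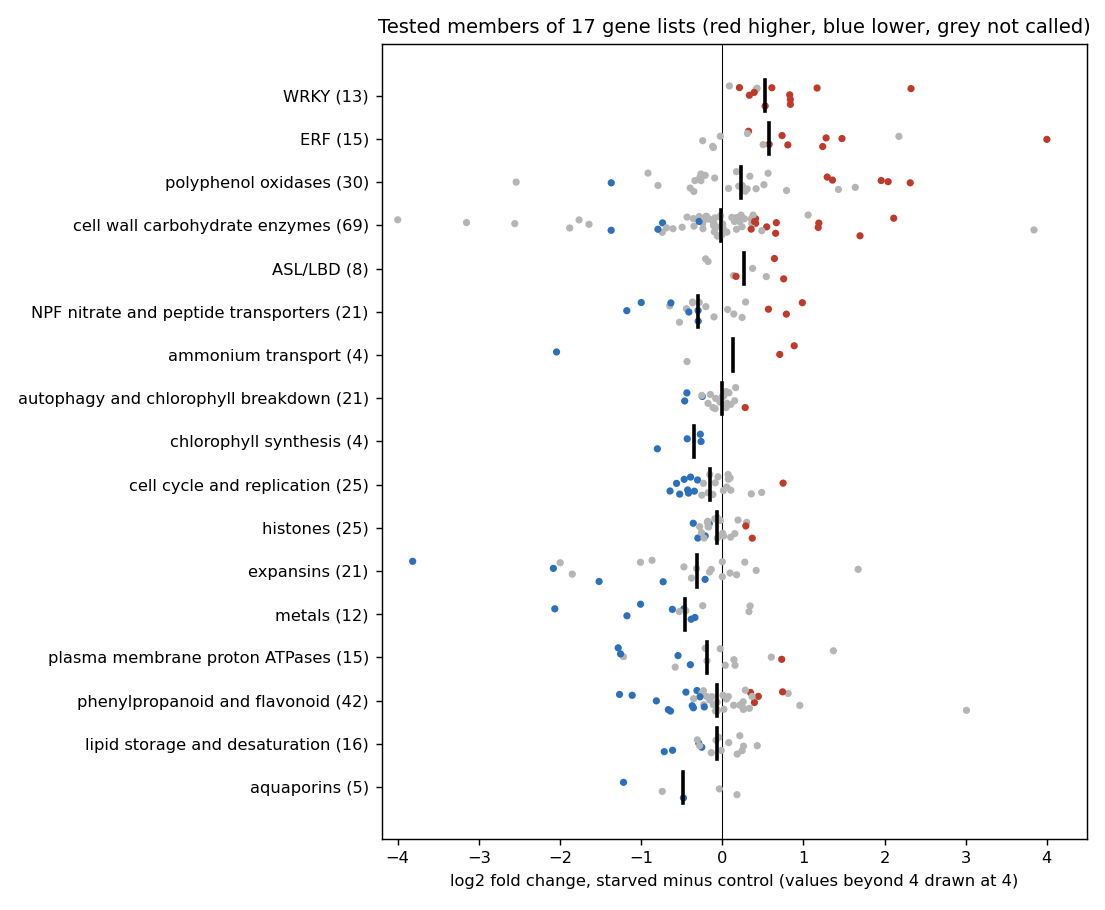
Log2 fold change (starved minus control, horizontal axis) of each tested member of 17 gene lists, with the number of tested members in brackets. The list labelled autophagy and chlorophyll breakdown holds autophagy genes only. Red points rose, blue points fell, grey points were not called and black bars are medians over the tested members; the medians of the WRKY (0.53) and ERF (0.58) lists lie on the right, those of metals (-0.46) and chlorophyll synthesis (-0.35) on the left.

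By absolute level, the named genes with the largest losses included the aquaporin MpPIP2 (Mp4g17210), a water channel of the plasma membrane. It stood at 2559.7, 2803 and 2727 CPM in control and 2273, 1728 and 1802 CPM in starved libraries and fell by 0.48 ± 0.11 (adjusted p = 0.0011). MpDOXC2 (Mp1g11700) stood at 932, 799 and 829 CPM and 496, 484 and 562 CPM and fell by 0.73 ± 0.18 (adjusted p = 0.00182), and MpCAT2 (Mp4g06600) fell by 0.36 ± 0.08 (adjusted p = 0.00062). Their starved libraries were all below the controls, which was a condition of their choice. The gains included MpLOX10 (Mp8g09050), a lipoxygenase that oxidises fatty acids, at 198, 168 and 209 CPM in control and 419, 369 and 376 CPM in starved libraries, a rise of 1.02 ± 0.24 (adjusted p = 0.00153). MpCE8.5 (Mp2g19430), a pectin methylesterase, rose by 0.41 ± 0.13 (adjusted p = 0.0191), with 0.27 (adjusted p = 0.162) without starved replicate 1 and an adjusted p of 0.0603 without control replicate 2.

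Of the 548 genes with at least 2-fold change, 297 raised and 136 lowered genes had no symbol in the names table. The unnamed genes below were chosen after their values were seen. Mp3g03990 had the largest loss in CPM, from 6369.8, 6605 and 6051 CPM to 4129, 3333 and 3566 CPM, a fall of 0.79 ± 0.08 (adjusted p = 8.51e-09). Mp5g03550 had the largest gain, from 959.7, 994 and 923 CPM to 2647, 2141 and 1885 CPM, a rise of 1.21 ± 0.32 (adjusted p = 0.00394). Both had groups that did not overlap, which was a condition of their choice. Mp7g07160 rose by 2.75 ± 0.27 (adjusted p = 5.03e-09), Mp6g19490 fell by 2.39 ± 0.16 (adjusted p = 2.77e-12) and Mp7g18470 fell by 2.34 ± 0.26 (adjusted p = 6.08e-08). In gene order, 10 runs of at least 3 genes changed by at least 2-fold in 1 direction with at most 3 positions from each to the next. They held 40 of the 522 such genes that the names table places, in 8 runs of raised and 2 of lowered genes.

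The longest run was of 7 lowered genes on chromosome 4, Mp4g05960, Mp4g05970, Mp4g05980, Mp4g05990, Mp4g06000, Mp4g06020 and Mp4g06040, which have no symbol. Mp4g05970 stood at 362, 420.0 and 324 CPM in control and 157, 105 and 98.5 CPM in starved libraries and fell by 1.61 ± 0.19 (adjusted p = 1.12e-07). Mp4g05990 stood at 129, 134 and 99.8 CPM and 38.5, 31.9 and 34 CPM and fell by 1.80 ± 0.15 (adjusted p = 4.25e-10). All 7 fell, by between 1.18 and 1.80, a shared direction that the definition of a run fixed. In each the starved libraries lay below the controls. Near-identical neighbours could share reads, so these 7 changes may not be independent measurements. At 72 h after full medium was returned the 7 genes stood higher than in the same starved libraries, by between 0.93 and 1.56 (the largest adjusted p was 2.93e-06). Between nitrate and phosphate starvation the 7 genes were not called, with values between -0.30 and -0.02 (the smallest adjusted p was 0.248). Against sucrose starvation they were lower under nitrate starvation, with values between -1.88 and -1.05 (the largest adjusted p was 7.19e-06). In the mutants, starved in a separate experiment, they were not called, with values between -0.52 and 0.08 (the smallest adjusted p was 0.219). In the second Tak-1 controls Mp4g06000 had a mean of 21.4 CPM, near its starved mean of 19.7 CPM. The other genes of the run were there nearer their control means on the log2 scale.

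Full medium was returned to starved plants, and the resupplied groups were compared with the same starved libraries, so that these comparisons share libraries with those above. Resupply for 6 h changed 5709 genes (42.3%), 2885 higher (21.4%) and 2824 lower (20.9%). At 24 h the number was 4036 (29.9%), and at 72 h it was 4387 (32.5%). The 20 named genes of largest change are described by their levels. At 6 h the mean of 9 of the 10 raised genes was nearer the control than the starved mean on the log2 scale, and at 72 h it was also 9 of 10, with MpLTP-like65 as the exception at both times. Of the 10 lowered genes 4 were nearer the control mean at 6 h, 8 at 24 h and 10 at 72 h. The genes were chosen by the difference between control and starved libraries, so part of such a move is fixed by the choice.

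At 6 h 21.4% of all genes were higher and 20.9% lower than in starved plants. Of 13 WRKY genes 9 were lower and 1 higher than in starved plants at 6 h, and of 15 ERF genes 9 were lower and 1 higher. Of 25 cell cycle and replication genes 14 were higher and 3 lower at 6 h, and 3 higher and 1 lower at 24 h, when 14.4% of all genes were higher and 15.5% lower. Of 25 histone genes 20 were higher and 1 lower at 6 h, and 3 higher and 1 lower at 24 h. Of 21 NPF genes 10 were higher and 1 lower at 6 h. Metal handling genes were higher in 4 of 12 and lower in 0 at 6 h, higher in 7 and lower in 1 at 24 h, and higher in 8 and lower in 1 at 72 h, when 16% of all genes were higher and 16.5% lower. The 4 chlorophyll synthesis genes were higher in 3, 4 and 4 and lower in 0 at these times.

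Lowered genes came back at different speeds. MpExpansin32 stood at 139, 89.9 and 78.7 CPM at 6 h and 110.5, 113 and 107 CPM at 72 h, 1.92 ± 0.17 (adjusted p = 5.12e-10) and 2.03 ± 0.17 (adjusted p = 9.59e-10) above the starved group. MpDOXC28 stood at 145, 147 and 114 CPM at 6 h, 1.54 ± 0.15 (adjusted p = 3.24e-09) above. Both were back near the control level at 6 h. MpFRO2 stood at 9.38, 8.47 and 9.27 CPM at 6 h and 12.5, 12.1 and 14.1 CPM at 72 h, still below each control library. MpCupin83 stood at 19.1, 16.3 and 17.7 CPM at 6 h, a value of -0.40 ± 0.56 (adjusted p = 0.6) against starved plants, and at 166, 119 and 128 CPM at 72 h, 2.56 ± 0.55 (adjusted p = 0.000553) above them. MpRLK-Pelle_SD-2b1 stood at 3.3, 4.27 and 3.48 CPM at 6 h and 13.6, 12.6 and 13.6 CPM at 72 h. These last genes thus stayed near or below the starved level at 6 h and were higher at 72 h. MpGUN5 stood at 424, 416 and 422 CPM at 6 h and 460.2, 441 and 438 CPM at 72 h, above every starved and below every control library.

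Among raised genes MpPPO2 was at 0.782, 0.693 and 0.331 CPM at 6 h, 4.68 ± 0.46 (adjusted p = 2.65e-09) below the starved group, under each of its control values, and at 2.8, 5.41 and 5.14 CPM at 72 h. MpCML42 was at 2.74, 3.04 and 3.77 CPM at 6 h, also below its controls. MpNLA was at 7.5, 10.3 and 5.46 CPM at 6 h, 11.5, 14.8 and 16.8 CPM at 24 h and 5.64, 9.39 and 6.98 CPM at 72 h, with a value of -0.09 ± 0.25 (adjusted p = 0.835) against starved plants at 24 h. Its libraries at 24 h thus overlapped with the starved range after lower values at 6 h. MpLTP-like65 was at 79.3, 98.4 and 97.5 CPM at 6 h and 72, 46.6 and 39.2 CPM at 72 h and had adjusted p of 0.372, 0.228 and 0.23 against starved plants at 6, 24 and 72 h. Of the nitrogen transporters, MpAMT1.2 was 0.70 ± 0.15 (adjusted p = 0.000438) lower at 6 h than in starved plants and MpAMT2.3 was 2.52 ± 0.29 (adjusted p = 3.99e-08) higher, at 6.57, 6.74 and 7.38 CPM. MpNPF33 rose past its control level, to 22.7, 25.9 and 27.3 CPM at 6 h, 2.73 ± 0.31 (adjusted p = 3.75e-08) above the starved group, and was at 11.9, 7.97 and 6.49 CPM at 72 h. The lipoxygenase MpLOX14 likewise stood at 125, 136 and 144 CPM in control, 91.9, 81.3 and 73.6 CPM in starved and 281, 269 and 233 CPM in 6 h libraries.

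**Figure D4:**
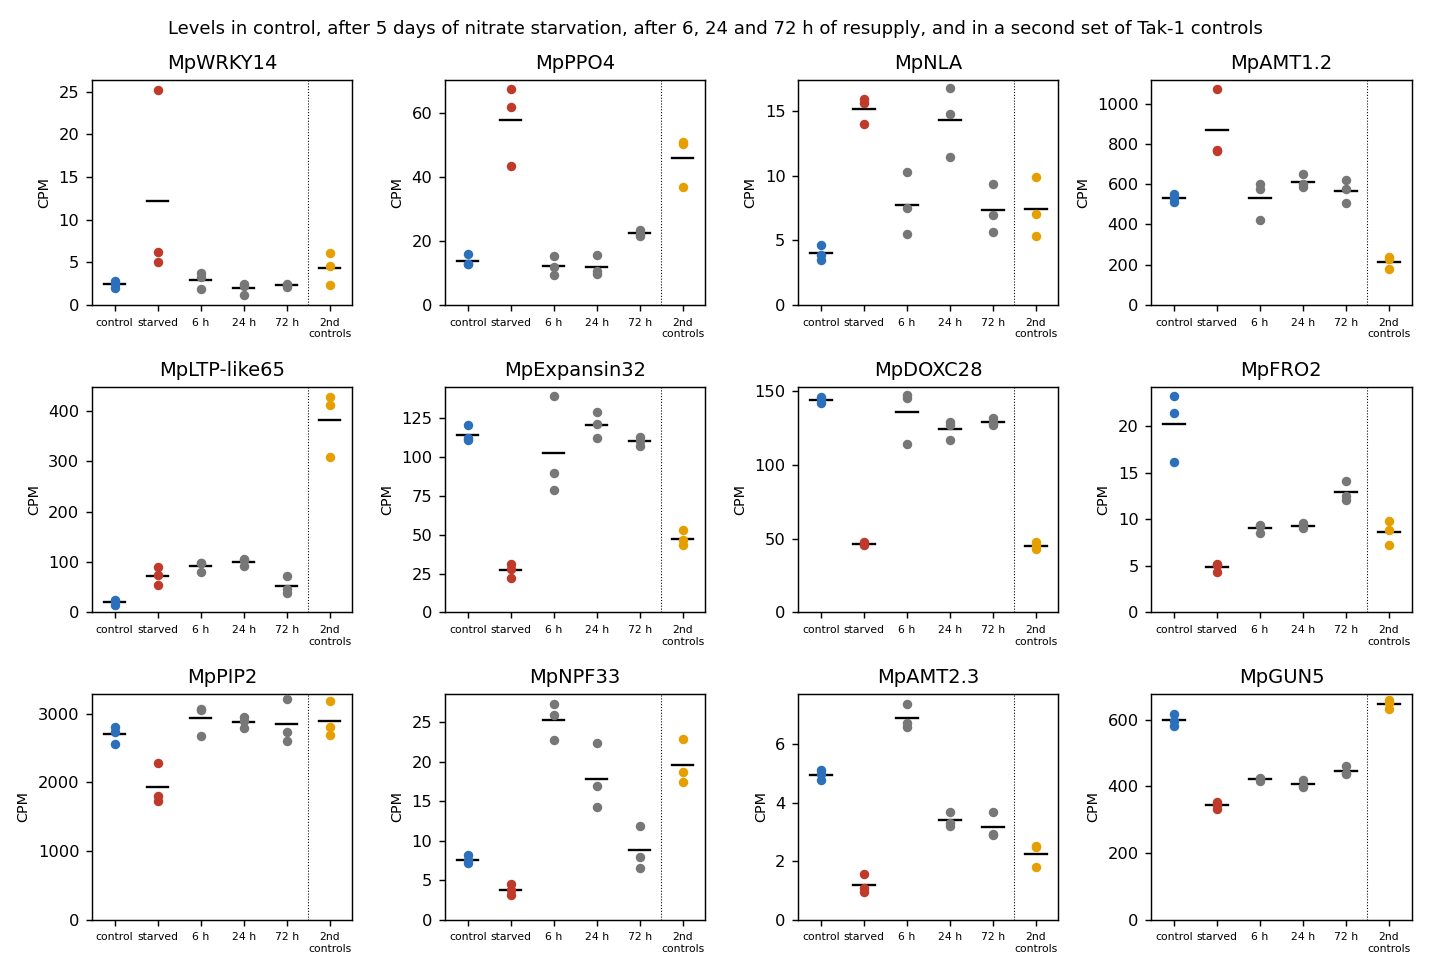
CPM (vertical axis, from 0) of 12 genes in control, nitrate-starved and resupplied (6, 24 and 72 h) Tak-1 libraries and, right of the dotted line, in the second set of Tak-1 controls, which was scaled in its own table. Points are libraries and bars are means of 3; MpExpansin32 and MpDOXC28 return close to the control level after resupply, while their second controls lie nearer the starved level.

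Plants starved of phosphate or sucrose for the same 5 days served as a comparison, and these tests share the nitrate-starved libraries with those above. Between nitrate and phosphate starvation 1139 genes (8.43%) were called, 250 when the 6 libraries were fitted alone, 736 without phosphate-starved replicate 1 and 713 without phosphate-starved replicate 3, and between nitrate and sucrose starvation 4034 (29.9%). MpNLA stood at 9.68, 5.96 and 5.96 CPM under phosphate starvation and 9.78, 11.2 and 11.8 CPM under sucrose starvation, and was 1.07 ± 0.26 (adjusted p = 0.00694) higher under nitrate than under phosphate starvation. MpAMT1.4 was 0.76 ± 0.17 (adjusted p = 0.00321) higher than under phosphate and 1.41 ± 0.18 (adjusted p = 3.95e-07) higher than under sucrose starvation, at 10.1, 11.4 and 11 CPM and 6.52, 5.94 and 8.36 CPM. MpAMT1.2, in contrast, stood at 794, 947 and 816 CPM under phosphate and 857, 905 and 936 CPM under sucrose starvation, with differences of 0.03 ± 0.15 (adjusted p = 0.943) and -0.05 ± 0.15 (adjusted p = 0.847). MpNPF31 was 0.52 ± 0.15 (adjusted p = 0.0257) lower and MpNPF28 0.35 ± 0.09 (adjusted p = 0.0107) lower under nitrate than under phosphate starvation. The ferroxidase-like MpLPR7 was 0.92 ± 0.19 (adjusted p = 0.00219) higher under nitrate than under phosphate starvation, where it stood at 16.2, 18.8 and 19.7 CPM.

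MpExpansin32 was 1.04 ± 0.17 (adjusted p = 0.000122) lower than under phosphate and 0.75 ± 0.17 (adjusted p = 0.00126) lower than under sucrose starvation, and MpDOXC28 was 1.02 ± 0.15 (adjusted p = 3.03e-05) and 0.86 ± 0.15 (adjusted p = 6.73e-05) lower. Both thus stood lowest under nitrate starvation among the 3 starved groups. Levels of the named genes of largest change were also set against the control and nitrate-starved means on the log2 scale. Under phosphate starvation 6 of the 10 raised and 6 of the 10 lowered genes stood nearer the nitrate-starved mean. Under sucrose starvation it was 7 of the 10 raised and 7 of the 10 lowered genes. The others stood nearer the control mean, and these levels were not tested. MpDOXC22 was 0.68 ± 0.09 (adjusted p = 4.27e-06) and 0.38 ± 0.09 (adjusted p = 0.00105) higher under nitrate than under phosphate and sucrose starvation. MpPPO4 differed by 0.59 ± 0.26 (adjusted p = 0.165) from phosphate and by 0.47 ± 0.26 (adjusted p = 0.177) from sucrose starvation, and neither difference was called. MpFRO2 stood at 7.48, 10.2 and 8.54 CPM under phosphate and 3.36, 3.71 and 4.33 CPM under sucrose starvation. Several genes that were high in starved replicate 1 were also high under sucrose starvation, where MpWRKY14 stood at 29.2, 10.1 and 33.3 CPM, MpGH16.8 at 116, 45.9 and 108 CPM and MpERF21 at 39, 9.0 and 40.2 CPM. Under nitrate starvation 4.3% of all genes were higher and 4.14% lower than under phosphate starvation, and 14.7% higher and 15.1% lower than under sucrose starvation. Of 13 WRKY genes 2 were higher and 0 lower than under phosphate starvation, and 2 higher and 1 lower than under sucrose starvation. Of 25 cell cycle and replication genes 0 were called against phosphate starvation, while 8 were higher and 0 lower under nitrate than under sucrose starvation.

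A second set of 3 Tak-1 control libraries, labelled as wild type under control conditions next to libraries of the mutants and scaled in its own table, gives the level of the same genes in other control plants. MpExpansin32 stood at 46.3, 43.4 and 52.8 CPM there, MpDOXC28 at 47.4, 43 and 44.8 CPM and MpPPR_73 at 111, 94.6 and 103 CPM. MpFRO2 stood at 9.77, 8.83 and 7.18 CPM. These values lie nearer the starved than the control level of the time course. The same held for 7 of the 10 lowered and 3 of the 10 raised genes of largest change (MpGH16.8, MpLTP-like65 and MpPPO4), judged by group means on the log2 scale. MpPPO4 stood at 51.1, 36.8 and 50.5 CPM and MpLTP-like65 at 410.5, 308 and 426 CPM. MpAMT1.2 stood at 228, 179 and 239 CPM, below both groups of the time course. MpNLA stood at 7.03, 5.31 and 9.87 CPM and MpGUN5 at 649, 659.7 and 631 CPM, nearer the control than the starved level. The 20 genes were chosen on the controls of the time course, no test was made across the tables, and the part of the experiment in the change was not tested.

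The same contrast was made in the mutants Mpcsd-2, Mperf20-21 and Mphd9-14, each starved of nitrate for 5 days at 1% and compared with its own control, 3 against 3, in a separate experiment. MpCSD, MpERF20 and MpHD9 are genes of transcription factors, and the study's design text calls the lines knock-outs. Mpcsd-2 had 243 called genes of 13162 tested (1.85%), of which 221 were higher (1.68%). Mperf20-21 had 428 (3.25%), of which 322 were higher (2.45%), and Mphd9-14 had 160 (1.22%), of which 141 were higher (1.07%), against 31.6% called in Tak-1. The experiment held no starved Tak-1 libraries, so genotype and experiment cannot be told apart, and the difference between the responses was not tested. The median SD of log2 CPM per gene was 0.12 in starved and 0.08 in control Tak-1 libraries, and 0.10 to 0.15 in the mutant groups. The counts moved by over 1.5 times with single libraries. Mpcsd-2 had 98 without starved replicate 1, 467 without starved replicate 3 and 151 without control replicate 3. Mperf20-21 had 164 without starved replicate 1 and 267, 245 and 240 without control replicates 1, 2 and 3. Mphd9-14 had 64 and 75 without starved replicates 1 and 3, and 84, 45 and 76 without control replicates 1, 2 and 3. Fitted alone, the 6 libraries of Mpcsd-2 gave 30 called genes and those of Mphd9-14 gave 572.

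Of the genes raised at least 2-fold in Tak-1, 336 were tested in both tables. Of these, 41 (12.2%) rose in Mpcsd-2, against 1.71% of the 12883 genes tested in both, with a median change of 0.36 there and 1.36 in Tak-1. In Mperf20-21 24 (7.14%, against 2.47%) rose, with a median of 0.08, and in Mphd9-14 5 (1.49%, against 1.09%), with a median of 0.06. Of 162 lowered genes 1 fell in Mpcsd-2 (0.617%, against 0.171% of all genes), 10 in Mperf20-21 (6.17%, against 0.823%) and 5 in Mphd9-14 (3.09%, against 0.147%), with medians of -0.05, -0.13 and -0.01 against -1.37 in Tak-1. Genes called the opposite way in Mperf20-21 were 7 of the lowered genes (4.32%, against 2.47% of all genes) and 5 of the raised genes (1.49%, against 0.823%). In Mpcsd-2 they were 1 lowered (0.617%, against 1.71%) and 1 raised gene (0.298%, against 0.171%), and in Mphd9-14 2 lowered (1.23%, against 1.09%) and 0 raised genes. Of the 336 raised genes 81.2% had a value above 0 in Mpcsd-2, 54.2% in Mperf20-21 and 59.5% in Mphd9-14, and of all genes 50.6%, 50.1% and 47.9%. Of the 162 lowered genes 54.3%, 64.2% and 51.9% had a value below 0, and of all genes 49.3%, 49.8% and 52%.

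MpPPO4 rose in all 3 mutants, by 2.41 ± 0.21 (adjusted p = 3.85e-08) in Mpcsd-2, 1.42 ± 0.17 (adjusted p = 1.36e-05) in Mperf20-21 and 0.75 ± 0.18 (adjusted p = 0.0314) in Mphd9-14. In Mpcsd-2 it stood at 3.45, 3.65 and 4.83 CPM in control and 22.6, 21.7 and 19.4 CPM in starved libraries, and in Mphd9-14 at 15.5, 20.5 and 17.8 CPM and 37.2, 26.6 and 26.5 CPM. Its neighbours MpPPO2 and MpPPO3 also rose in Mpcsd-2, by 2.93 ± 0.77 (adjusted p = 0.0386) and 2.24 ± 0.39 (adjusted p = 0.001). Of 27 polyphenol oxidases tested there, 4 rose in Mpcsd-2, 3 in Mperf20-21 and 7 in Mphd9-14, while 1 fell, in Mperf20-21. Of all genes 1.68%, 2.45% and 1.07% rose in Mpcsd-2, Mperf20-21 and Mphd9-14, and 0.805% fell in Mperf20-21. The glutathione transferase MpGST9, which rose by 1.04 ± 0.18 (adjusted p = 3.32e-05) in Tak-1, rose by 0.63 ± 0.09 (adjusted p = 8.13e-05), 0.72 ± 0.09 (adjusted p = 1.30e-05) and 0.38 ± 0.09 (adjusted p = 0.0204) in Mpcsd-2, Mperf20-21 and Mphd9-14. MpMATE9 fell in Mperf20-21, with a value of -1.09 ± 0.28 (adjusted p = 0.0226), and was at -0.94 ± 0.27 (adjusted p = 0.0654) in Mpcsd-2 and -0.90 ± 0.28 (adjusted p = 0.135) in Mphd9-14.

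Other genes of large change in Tak-1 were not called in the mutants. The controls of the mutants, scaled in their own table, were set against the group means of Tak-1 on the log2 scale. Of the 10 lowered genes of largest change, 5 in Mpcsd-2, 8 in Mperf20-21 and 8 in Mphd9-14 controls stood nearer the starved than the control mean. Of the 10 raised genes it was 3, 4 and 1. These levels were not tested across experiments. MpExpansin32 was at -0.32 ± 0.13 (adjusted p = 0.335) in Mpcsd-2, -0.04 ± 0.13 (adjusted p = 0.96) in Mperf20-21 and -0.01 ± 0.13 (adjusted p = 1) in Mphd9-14. In Mpcsd-2 it stood at 112, 134 and 108 CPM in control and 84.4, 98.8 and 102 CPM in starved libraries, and in Mperf20-21 at 57.7, 78.2 and 72 CPM and 66.8, 62.1 and 73.4 CPM. The groups of Mperf20-21 overlap, whereas those of Tak-1 do not. MpNLA was at 0.34 ± 0.46 (adjusted p = 0.904), 0.07 ± 0.41 (adjusted p = 0.981) and -0.18 ± 0.43 (adjusted p = 0.998). MpWRKY14 was at 1.26 ± 0.52 (adjusted p = 0.337), -0.66 ± 0.55 (adjusted p = 0.682) and 0.88 ± 0.67 (adjusted p = 0.886). Of 13 WRKY genes 1, MpWRKY8, rose in Mpcsd-2 by 0.63 ± 0.14 (adjusted p = 0.0109), and 0 were called in the other mutants. Of the 4 chlorophyll synthesis genes 0 were called in any mutant. Of all genes 1.85%, 3.25% and 1.22% were called in Mpcsd-2, Mperf20-21 and Mphd9-14. MpAMT1.4 rose by 1.64 ± 0.25 (adjusted p = 0.000199) in Mperf20-21, and its values were 0.14 ± 0.26 (adjusted p = 0.931) in Mpcsd-2 and 0.77 ± 0.26 (adjusted p = 0.197) in Mphd9-14.

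**Figure D5:**
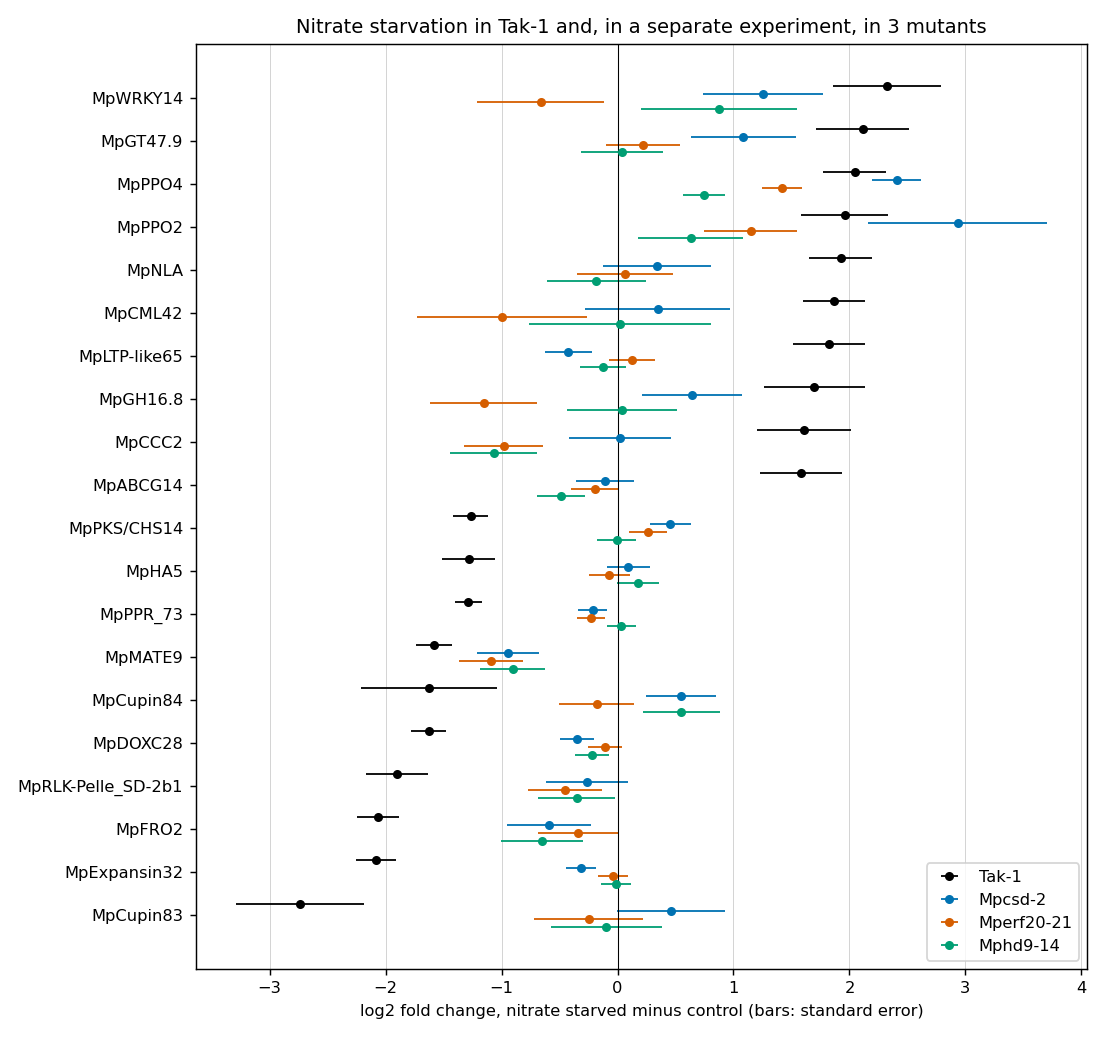
Log2 fold change (nitrate starved minus control, horizontal axis) with its standard error as bars, for the 20 named genes of largest change, in Tak-1 (black) and in the mutants Mpcsd-2 (blue), Mperf20-21 (orange) and Mphd9-14 (green), which were starved in a separate experiment. MpPPO4 lies right of 0 in all 4 genotypes, and MpExpansin32 lies at -2.08 in Tak-1 and between -0.32 and -0.01 in the mutants.

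The 3 genes mutated in these lines changed little in wild-type plants. MpCSD (Mp1g04040) stood at 500.2, 541 and 568 CPM in control and 503, 527 and 471 CPM in starved Tak-1 libraries, a log2 fold change of -0.10 ± 0.07 (adjusted p = 0.322). MpERF20 (Mp5g06970) stood at 4.03, 2.39 and 3.92 CPM and 1.83, 3.01 and 4.91 CPM, a log2 fold change of -0.11 ± 0.29 (adjusted p = 0.813). Both had overlapping groups and were not called. MpHD9 (Mp1g01010) stood at 29.2, 28.8 and 31.1 CPM and 26.4, 25.7 and 23.3 CPM and fell by 0.24 ± 0.08 (adjusted p = 0.024), a small change, and its adjusted p was 0.105 without control replicate 3 and 0.14 without starved replicate 3. After 6 h of resupply all 3 were higher than in starved plants, MpERF20 by 1.32 ± 0.28 (adjusted p = 0.000276), MpHD9 by 0.56 ± 0.08 (adjusted p = 1.99e-06) and MpCSD by 0.24 ± 0.07 (adjusted p = 0.0103).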

How the data were processed

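RNA from whole gemmalings was extracted with the QIAGEN Plant RNeasy kit and made into directional poly-A libraries, per the labels' protocols. The authors deposited raw read counts per gene, in 3 tables used here: the Tak-1 time course (39 libraries, 19930892 to 38992957 counts each), the mutants under starvation (35 libraries, 16878159 to 28439838) and a control-condition set (12 libraries, 20161746 to 27511775). The submitters' processing notes name STAR 2.7 and DESeq2. The counting program, its strand setting, the genome build and the annotation are not given in the sources used here. Neighbouring, overlapping or near-identical genes may share reads. The algal table was not analysed here.

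Counts were fitted with edgeR 4.0.16 (R 4.3.3) by the quasi-likelihood test after TMM scaling and filterByExpr (minimum count 10), over all 39 time-course libraries in 13 groups or all 35 mutant libraries, with Benjamini-Hochberg adjustment over all tested genes and a threshold of 0.05. The standard error is the absolute log2 fold change over the square root of F. CPM were scaled within each table. The procedure was tested on simulated data. No 2 time-course libraries were identical. Alternatives were RLE size factors, no filter, a replicate block, DESeq2 1.42.0, a fit of the compared groups alone, and leaving out each library.

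Gene names came from NCBI's RefSeq table for assembly MpTak2_v7.1, which matched 17384 of 19355 IDs and gave symbols to 3091; it was used for names and gene order only. Gene lists were built from symbols: 48 were written and 44 had a tested gene. Named genes were, among called genes with a symbol, the 10 highest and the 10 lowest log2 fold changes with non-overlapping groups and at least 10 CPM in the higher group, the 5 largest gains and losses of CPM, up to 3 members per list with the smallest adjusted p, and the ammonium and anion transporters, MpNLA, MpCSD, MpERF20 and MpHD9. Other list members named, and genes without a symbol, were chosen after their values were seen. The groups, comparisons and gene lists were chosen with earlier results of these data known.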

Additional observations from a re-analysis of the deposited data

Results flagged for a closer look

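For some named genes the starved libraries lay on one side of the controls in Tak-1 and on the other side in a mutant, with no overlap within either genotype. Groups that do not overlap are common with 3 libraries each (47.7% of all genes in Tak-1). Their share in the mutants, and the share of opposite positions over all genes, were not counted. The number of flagged pairs thus cannot be set against a background. The difference between genotypes was not tested, and genotype and experiment cannot be told apart. Among the 188 named genes, only those called in Tak-1 without overlap could be flagged. Such opposite positions were found in 44 pairs of a named gene and a mutant. The 12 given here are those of the genes of largest change, gain or loss in Tak-1, and all that passed in the mutant. By edgeR's quasi-likelihood test with Benjamini-Hochberg adjustment, 5 of the 44 passed in the mutant, all in Mperf20-21. There MpHA11 was at 1.64 (adjusted p = 6.75e-05), MpZIP5 at 1.47 (adjusted p = 0.0121) and MpExpansin14 at 0.54 (adjusted p = 0.0146) on the log2 scale, and these genes fell in Tak-1. MpASLBD24 was at -0.63 (adjusted p = 0.00111) and MpRLK-Pelle_URK-Pp-1a at -0.44 (adjusted p = 0.0241), and these rose in Tak-1. The other 7 of the 12 values did not pass in the mutant. Among genes that rose in Tak-1, MpCCC2 was at -0.98 (adjusted p = 0.141) in Mperf20-21 and -1.07 (adjusted p = 0.241) in Mphd9-14, and in Mphd9-14 MpWRKY11 was at -0.0872 (adjusted p = 0.798) and MpBZIP15 at -0.14 (adjusted p = 0.558). Among genes that fell in Tak-1, MpCupin84 was at 0.55 (adjusted p = 0.767) and MpFAD11 at 0.0688 (adjusted p = 0.984) in Mphd9-14, and MpPKS/CHS14 was at 0.46 (adjusted p = 0.29) in Mpcsd-2.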

How the results depend on the processing

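The count of 4261 called genes in Tak-1 was 3983 to 4413 under the other scaling, filter, block, tool and grouping settings, and 3379 to 3849 when 1 library was left out. The count of at least 2-fold changes, 548, was 516 to 554 and 455 to 580. Same-numbered control and starved libraries did not deviate together (correlations of -0.09, -0.01 and 0.00). Pairing by number was thus not seen in this comparison, but 3 libraries per group cannot exclude it. With the replicate block the counts were 4140 and 533, and 5642, 3954, 4276, 1103 and 3959 for resupply at 6, 24 and 72 h and for nitrate against phosphate and sucrose starvation.

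Fitting the compared groups alone gave 250 genes between nitrate and phosphate starvation, 30 in Mpcsd-2 and 572 in Mphd9-14, and DESeq2 gave 250 in Mphd9-14. The cause was not tested. Leaving out single libraries gave 4666 to 5384, 3165 to 3657 and 3352 to 3930 genes for resupply at 6, 24 and 72 h, 713 to 1203 against phosphate and 3004 to 4172 against sucrose starvation, 98 to 467 in Mpcsd-2, 164 to 425 in Mperf20-21 and 45 to 110 in Mphd9-14. For the 188 named genes, 1953 of 2065 values under 11 alternatives kept direction and call, 107 lost the call and 5 reversed. The reversed values were of genes that were not called: MpCLC1, with -0.0189 to 0.047 when 1 library was left out (-0.0189 without starved replicate 1, -0.0177 without starved replicate 3 and -0.0059 without control replicate 1), and MpERF20, with -0.52 to 0.19 (0.19 without starved replicate 1 and 0.02 without control replicate 1). With 3 libraries per group, low-level genes such as MpERF21 give the least precise values.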
